A study of Homo sapiens with 6 samples.

Results

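In 293T cells that stably express a control hairpin (shCTL), the trimethylated and dimethylated forms of lysine 79 of histone H3, H3K79me3 and H3K79me2, were compared site by site. The members are the 6808 H3K79me2 peaks and 5575 H3K79me3 peaks listed for these cells on chromosomes 1 to 22 and X. Peaks sharing at least 1 bp were merged, which gave 7808 regions. For comparison, all 4 ChIP lists of the series gave 8868 regions when merged, and the knockdown lists alone gave 7934. The study used chromatin immunoprecipitation and sequencing (ChIP-seq) in the human embryonic kidney line 293T, which carries the SV40 large T antigen. Its 6 libraries comprise H3K79me2, H3K79me3 and input DNA from shCTL cells and from shKDM2B cells, which stably express a hairpin against the histone demethylase family member KDM2B. The 2 libraries compared here come from shCTL cells and differ in the antibody, each from Abcam, and the labels name no added agent. Each group holds 1 library, and the sources do not state whether the stable cells are 1 clone or a pool.

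H3K79 methylation is placed by DOT1L, a methyltransferase that works without a SET domain and adds its methyl groups 1 after another, so the dimethyl form is the substrate from which the trimethyl form is made. Both forms lie over actively transcribed genes and are typically densest in the part of the gene just after its start. DOT1L travels with elongation factors that bind RNA polymerase II, and monoubiquitin on histone H2B stimulates its activity. The files name no genes and the gene tables at hand use another genome build, so regions are given by hg19 position.

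The control H3K79me2 library held 16018517 tags after duplicate removal and the H3K79me3 library 17044011, and 13.04% and 9.75% of them lay in the listed peaks. Levels are given as RPM per kb: tags divided by the library's filtered tags, in units of 1000000, and by the called width of the mark's own peak in kb. The marks were detected with different antibodies, so a ratio of the marks compares tags and not numbers of modified histones. With 1 library per mark there is no test and no replicate check, and intervals cover counting error only.

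Most regions carried both marks. Both were listed in 4518 regions (57.9%, 95% interval 56.8 to 58.96%), H3K79me2 alone in 2267 (29.0%) and H3K79me3 alone in 1023 (13.1%). With equal numbers of top-scoring peaks from each list these single-mark counts were 1301 and 1277, which are near each other by construction, since nearly every shared region takes 1 peak from each list. Of the regions with both, 4461 held exactly 1 peak of each mark, 34 held 1 H3K79me2 peak over 2 H3K79me3 peaks, and 23 the reverse. The extent of overlap varied: in regions of 1 peak per mark the marks shared a median of 73.2% of the merged length (quartiles 58.6 and 84.7%). The smallest overlap was 167 bp, and 3844 of the 4461 regions met a reciprocal overlap of 50%. Just outside the merging rule, 66 H3K79me2 peaks and 27 H3K79me3 peaks without the other mark had it within 1000 bp, the nearest at 27 bp and 122 bp.

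Where both marks were present, H3K79me3 gave fewer tags per kb than H3K79me2, with a median ratio of 0.664 (log2 -0.59, quartiles of regions -0.80 and -0.36). The direction depended on scale and measure. Scaling each library to its tags in these same regions turned the log2 median to 0.13. By the peak caller's fold enrichment, set within each library against local background, the median log2 ratio was 0.11 (quartiles -0.08 and 0.27). The median density was 5.23 RPM per kb for H3K79me2 (quartiles 3.88 and 7.44) and 3.35 for H3K79me3 (quartiles 2.31 and 5.50). H3K79me3 was the denser mark in 228 regions (5.05%). Beyond counting error it was lower in 3773 regions (83.5%) and higher in 80 (1.77%). By a 1.5-fold limit it was lower in 2290 regions (50.7%) and higher in 26 (0.575%). The ordering of regions was shared by the marks: across the 4518 regions, which share their cells and their called positions, Spearman's rho of the densities was 0.925. H3K79me3 spanned the wider range, with an SD of 0.85 for its log2 density against 0.67 for H3K79me2.

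**Figure D1:**
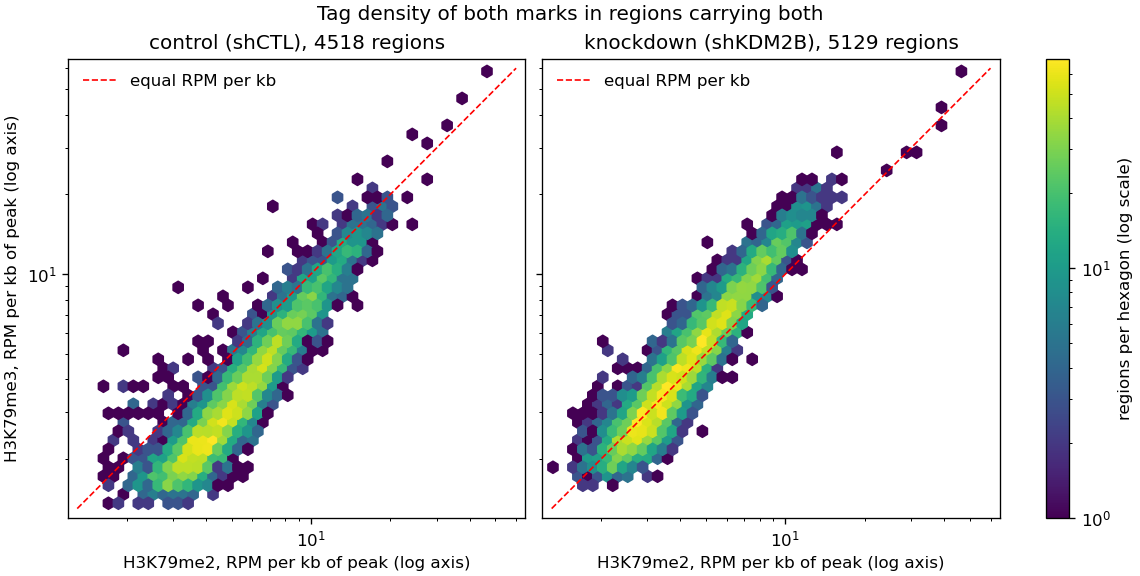
Tag density of H3K79me3 against H3K79me2 in regions carrying both, in RPM per kb of called peak on log axes, with color giving the number of regions per hexagon and the dashed line equal density. In control cells (left) 5.05% of 4518 regions lie above the line and the cloud nears it at high density, whereas in knockdown cells (right) 65.6% of 5129 regions lie above it.

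From 1 kb upwards, H3K79me3 came closer to H3K79me2 the wider the region was. The median ratio was 0.574 in regions of 1 to 2 kb (n = 658), 0.613 at 2 to 3 kb (n = 1056) and 0.678 at 3 to 5 kb (n = 1466). It reached 0.741 at 5 to 7 kb (n = 845) and 0.783 over 7 kb (n = 394). Regions with H3K79me3 lower by over 1.5-fold made up 78.0% at 1 to 2 kb and 20.6% over 7 kb, against 50.7% of all regions with both marks. Tags summed over the called peaks without division by width followed the same order, from a median ratio of 0.415 at 1 to 2 kb to 0.637 over 7 kb. Changing the scale of a library moves all classes alike and leaves this order as it is. A region entered only if both marks were called in it.

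The smallest regions stood apart from that order. The 99 regions of up to 1 kb had a median ratio of 0.841, and 52.5% of them lay on a peak of an input library, against 1.66% to 5.32% in the wider classes. Those 52 on input peaks had a median of 1.11, and the other 47 had 0.668. Over all widths the 165 regions on input peaks had a median log2 ratio of 0.08, and the 4353 outside them -0.60. The regions in which H3K79me3 was the denser mark were rich in such positions, with 92 of 228 on input peaks (40.4%, 95% interval 33.9 to 47.0%), against 73 of the other 4290 (1.70%).

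**Figure D2:**
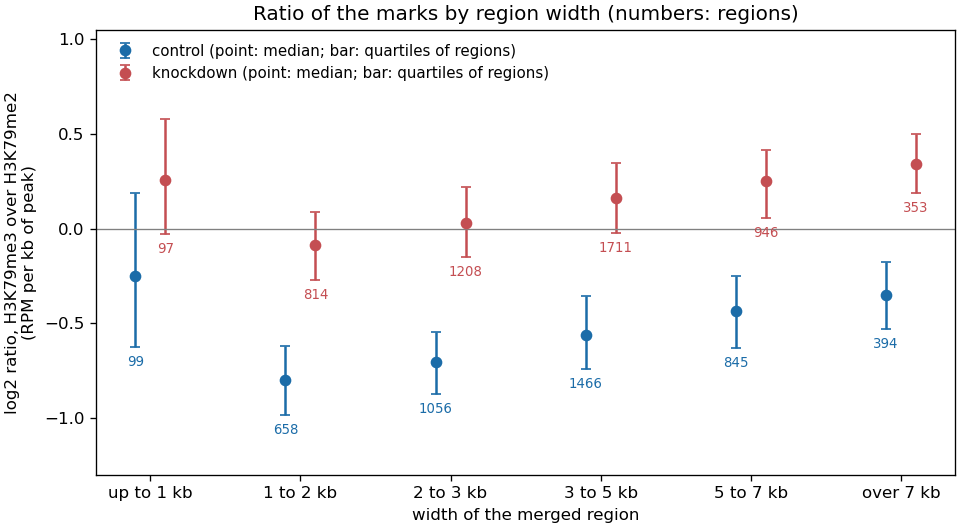
Median log2 ratio of H3K79me3 to H3K79me2 (RPM per kb of peak) by width of the merged region, for control and knockdown cells, with bars at the quartiles of regions and the number of regions below each. In control cells the median climbs from -0.80 at 1 to 2 kb to -0.35 over 7 kb, and the class up to 1 kb, with 52.5% on input peaks, lies above its neighbor.

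H3K79me3 also came closer to H3K79me2 where H3K79me2 was dense. To keep the ordering apart from the ratio, the 3916 control regions that met exactly 1 knockdown region with both marks were ranked by the knockdown H3K79me2 density and put in classes of 783 or 784 regions. From the sparsest class to the densest, the median control ratio was 0.608, 0.604, 0.634, 0.694 and 0.817. The sparsest classes were alike, and the climb lay above a knockdown density of 4.24 RPM per kb. Within a width class of 3 to 5 kb the denser regions had a median ratio of 0.739 (n = 672) and the sparser ones 0.638 (n = 673). At 5 to 7 kb these values were 0.821 and 0.689. At 1 to 2 kb the order was the other way, at 0.551 and 0.583, so density and ratio went together only in the wider regions.

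The regions outside input peaks with the most tags of both marks illustrate the dense end, and they were chosen by that rule. A region on an input peak of chromosome 1 had more tags in sum, with H3K79me3 the denser mark, and was left out by this limit. At chromosome 1, 156714403 to 156723568, H3K79me2 held 3293 tags (22.4 RPM per kb) and H3K79me3 2834 tags (18.95 RPM per kb), a ratio of 0.845 with a counting interval of -0.32 to -0.17 on the log2 scale. At chromosome 16, 18793569 to 18801972, the marks held 2556 and 2563 tags, and the ratio of 0.974 did not differ from equality by counting error. The other members of this set, both on chromosome 19 at 40328704 to 40337369 and 14521969 to 14530289, had ratios of 0.882 and 0.877. These were among the strongest regions by tags but not by the caller's own values: the fold enrichment that the caller set against the local background was 2.38 to 3.03 for either mark in these 4 regions, against a median of 5.68 and 5.63 in the whole lists.

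At the low end of the ratio were compact regions. Among regions of 1 peak per mark with at least 50 tags of each, outside input peaks, the lowest lay at chromosome 6, 71276336 to 71278136. There H3K79me2 had 132 tags in 1438 bp (5.73 RPM per kb) and H3K79me3 59 tags in 1801 bp (1.92 RPM per kb), a ratio of 0.335 (counting interval -2.04 to -1.12 on the log2 scale). The next lay at chromosome 21, 37430031 to 37432624, with 225 and 70 tags (ratio 0.389), chromosome 10, 12110887 to 12113151, with 220 and 76 tags (0.391), and chromosome 1, 153916908 to 153919391, with 215 and 51 tags (0.392). In knockdown cells the same positions carried both marks at ratios of 0.975, 1.06, 0.907 and 1.01, all below the knockdown median of 1.09.

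Under the same limits on tags and input peaks, 3 of the 4 highest ratios per kb paired a narrow H3K79me3 peak with a far wider H3K79me2 peak. Without these limits the highest ratio of all regions was 2.81. At chromosome 3, 23953069 to 23961309, H3K79me3 held 414 tags in 2597 bp (9.35 RPM per kb) and H3K79me2 875 tags in 8241 bp (6.63 RPM per kb), a ratio of 1.41. By tags alone H3K79me2 was the higher there. H3K79me2 also had more tags at chromosome 1, 153606172 to 153614813 (1191 against 1535 tags, ratio 1.36) and 154947204 to 154954972 (1017 against 1346 tags, ratio 1.35). In these 3 regions the H3K79me2 peak had a score of 54.7 to 72.1, near the calling limit of 50, and the H3K79me3 peak a score of 739 to 1150. The fourth, at chromosome X, 47372337 to 47373149, was compact, with 61 and 54 tags and a ratio of 1.33 whose counting interval of -0.14 to 0.96 on the log2 scale includes equality.

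In knockdown cells the ratio was shifted as a whole, while from 1 kb upwards its order by width was the same. The median ratio per kb there was 1.09 (log2 0.12, quartiles -0.08 and 0.33, n = 5129), and H3K79me3 was the denser mark in 3363 regions (65.6%). It was higher beyond counting error in 1628 regions (31.7%) and lower in 128 (2.5%), and past the 1.5-fold limit it was higher in 318 (6.2%) and lower in 38 (0.741%). In 3860 of the 3916 matched regions (98.6%) the ratio was higher in the knockdown pair, with a median log2 difference of 0.76. The knockdown medians ran from 0.941 at 1 to 2 kb to 1.27 over 7 kb. The sign depends on the measure: by summed tags the median log2 ratio was below 0 in both lines, at -0.996 in control and -0.38 in knockdown cells. By the caller's fold enrichment it was above 0 in both lines, at 0.11 in control and 0.35 in knockdown cells. The pairs also differed as whole libraries. In knockdown cells 10.76% of H3K79me2 tags and 14.30% of H3K79me3 tags lay in the listed peaks, against 13.04% and 9.75% in control cells. The estimated fragment was 210 bp for H3K79me2 and 126 bp for H3K79me3 in knockdown cells, against 148 and 180 bp in control cells. The part of these library differences in the shift was not tested. Regions kept something of their rank: Spearman's rho of the ratio between the lines was 0.526 across the 3916 regions, which share positions but no library. The 392 regions with the lowest control ratio had a knockdown median of 1.003, and the 392 with the highest had 1.39. Their median widths were 2140 and 4886 bp, so shared rank and width are not separated here.

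The summits of the marks lay close together. In the 4461 regions of 1 peak per mark, the median distance between the H3K79me2 and the H3K79me3 summit was 176 bp (quartiles 67 and 378 bp). It was at most 100 bp in 34.2% of regions, at most 250 bp in 61.4% and at most 1000 bp in 94.5%. The H3K79me3 summit fell inside the H3K79me2 peak in 99.6% of regions, and the H3K79me2 summit inside the H3K79me3 peak in 97.8%. The distance grew less than the region did: its median was 140 bp at 1 to 2 kb (8.80% of the region's width) and 232 bp over 7 kb (3.02%). In knockdown cells the median was 177 bp, nearly the same value from separate libraries.

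A few regions had their summits far apart. The largest distance, 4213 bp, was at chromosome 2, 20246549 to 20251392, where the peaks of both marks spanned almost the same stretch, 4844 and 4735 bp. The next were 3954 bp at chromosome 22, 24407859 to 24414779, and 3849 bp at chromosome 5, 68998034 to 69006024. At each of them at least 1 of the peaks scored 81.9 or less, so these distances involve weakly called peaks.

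H3K79me3 peaks were narrower than the H3K79me2 peaks they met. The median width was 2391 bp for H3K79me3 and 3428 bp for H3K79me2, and the median ratio of widths within a region was 0.758 (quartiles 0.608 and 0.887). H3K79me3 was the wider mark in 379 regions (8.50%). The H3K79me3 peak lay wholly within the H3K79me2 peak in 2827 regions (63.4%, 95% interval 61.9 to 64.8%), the H3K79me2 peak within the H3K79me3 peak in 191 (4.28%), and neither in 1443 (32.3%). Containment of H3K79me3 held at 60.6% to 65.8% in every class over 1 kb. In the regions of up to 1 kb it was 18.2%, and there H3K79me2 lay within H3K79me3 in 48.5%. In knockdown cells H3K79me3 lay within H3K79me2 in 84.0% of regions and the width ratio was 0.703. The estimated fragment was the longer for H3K79me3 in control cells and for H3K79me2 in knockdown cells, and subtracting it from each control width moved the median log2 width ratio from -0.40 to -0.44.

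The extra length of H3K79me2 lay mostly on 1 side, a measure chosen after seeing the data. The H3K79me2 peak reached past the H3K79me3 peak by a median of 692 bp at the end where it reached further (quartiles 340 and 1213 bp) and by 51 bp at the other end. Sorting the ends of each region sets this order by construction, so these medians alone do not show a preferred side. To give the ends an orientation from a separate library, each region was turned by the single knockdown H3K79me2 peak over it: the end farther from that peak's summit is the long arm, which made up a median of 70.7% of the peak. In 3092 of 3913 such regions (79.02%, 95% interval 77.7 to 80.3%) control H3K79me2 reached further past H3K79me3 on the long arm. The median excess was 600 bp on the long arm (quartiles 220 and 1066 bp) and 82 bp on the short arm (quartiles -25 and 239 bp). The arms differed relative to their own length too, with a median of 26.8% of the long arm and 9.04% of the short arm lying beyond H3K79me3. Turned by the knockdown H3K79me3 peak the share was 76.1%. By the control H3K79me2 peak it was 83.2% and by the control H3K79me3 peak 70.1%. The control peaks also enter the measured reach, so these last shares are not independent of it. The H3K79me3 summit lay a median of 19 bp from the H3K79me2 summit towards the long arm set by knockdown H3K79me2 and 20 bp by knockdown H3K79me3. Turned by the control peaks it lay 47 bp towards the long arm of H3K79me2, and the value for the long arm of H3K79me3 was -27 bp, so the direction depended on the peak used. The files give no strand, so the long arm cannot be assigned to a direction of transcription.

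**Figure D3:**
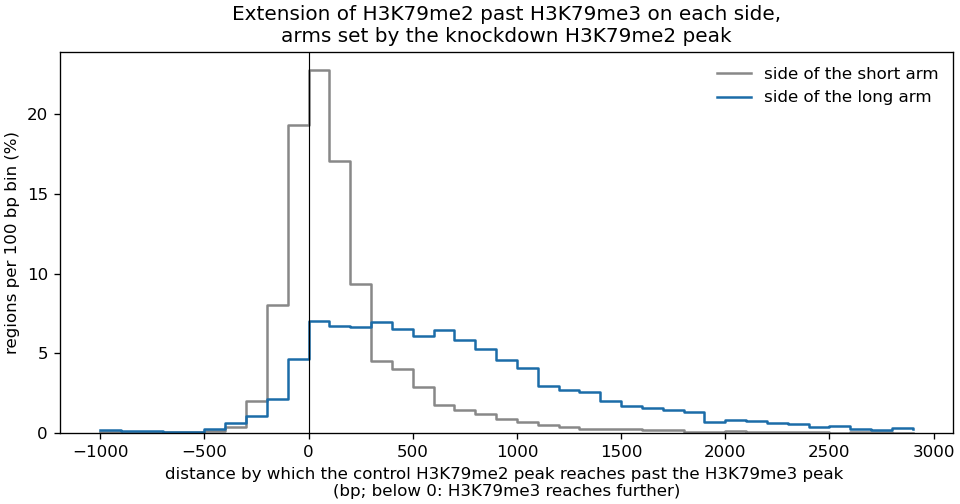
Distance by which the control H3K79me2 peak reaches past the control H3K79me3 peak at each end of the region, in bp, as the percentage of 3913 regions per 100 bp bin, with the ends named by the arms of the knockdown H3K79me2 peak; values outside -1000 to 3000 bp are not drawn. The short-arm ends gather near 0 (median 82 bp) and the long-arm ends spread widely (median 600 bp).

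Sites with H3K79me2 alone were short and weak. The 2267 such peaks were 33.3% of the H3K79me2 list but held 8.73% of its peak tags, with a median width of 1271 bp, 52 tags and a score of 87.9. H3K79me2 peaks with H3K79me3 had medians of 3418 bp, 299 tags and 266. The share without H3K79me3 was 84.4% of peaks up to 1 kb, 57.9% at 1 to 2 kb, 21.0% at 2 to 3 kb and 4.16% over 7 kb. By score it was 74.3% among the 1702 lowest peaks and 0.529% among the 1702 highest (9 peaks). Width for width these sites were also the thinner ones, with a median of 2.97 RPM per kb at 3 to 5 kb against 5.79 for peaks with both marks. At such levels absent H3K79me3 and uncalled H3K79me3 cannot be told apart at this depth.

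In the knockdown lists the sites with H3K79me2 alone often carried H3K79me3. Of the 2267, 1528 (67.4%) lay on a knockdown H3K79me2 peak and 1164 (51.3%, 95% interval 49.3 to 53.4%) on a knockdown H3K79me3 peak; 562 (24.8%) met neither. H3K79me2 peaks with both marks met these at 87.8% and 97.8%. Where a knockdown region with both marks lay over control H3K79me2-only sites and no other control region (955 regions), its median ratio was 0.929, against 1.14 over control sites with both marks (3890 regions). The former regions were also the narrower, with a median of 2214 against 3780.5 bp.

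The 4 highest-scoring H3K79me2 peaks without H3K79me3, outside input peaks, differed in density and in their knockdown state. At chromosome 2, 86947392 to 86953184, H3K79me2 held 1370 tags (14.8 RPM per kb), and at chromosome 20, 2484330 to 2489799, 605 tags (6.90 RPM per kb). Their scores were 706 and 368, and both positions carried H3K79me3 but no H3K79me2 in the knockdown lists. The other two lay on chromosome 8. Of these, the site with a score of 657 held 804 tags (15.8 RPM per kb) and met no knockdown peak of either mark. The site with a score of 382 held 106 tags (4.92 RPM per kb) and carried both marks in knockdown cells at a ratio of 0.903. The called marks thus differed between the lines at all 4 sites, and only at those on chromosomes 2 and 20 was H3K79me3 listed alone in knockdown cells.

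Sites with H3K79me3 alone were long and rich in tags, unlike those with H3K79me2 alone. The 1023 such peaks were 18.3% of the H3K79me3 list and held 25.8% of its peak tags, with a median width of 4478 bp and 287 tags, against 2369.5 bp and 145 tags for H3K79me3 peaks with H3K79me2. Yet their median score was the lower, 94.3 against 200.2. Peaks over 5 kb made up 449 of them (43.9%), whereas among sites with H3K79me2 alone they made up 78 of 2267 (3.44%). The share of H3K79me3 peaks without H3K79me2 was 26.8% up to 1 kb, 6.27% at 1 to 2 kb, 8.93% at 2 to 3 kb, 17.3% at 3 to 5 kb, 34.0% at 5 to 7 kb and 66.8% over 7 kb (95% interval 60.97 to 72.2%). From 1 kb upwards the order by width was thus opposite to that of H3K79me2. In knockdown cells the share over 7 kb was 84.0% for H3K79me3 and 1.14% for H3K79me2, the same contrast.

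**Figure D4:**
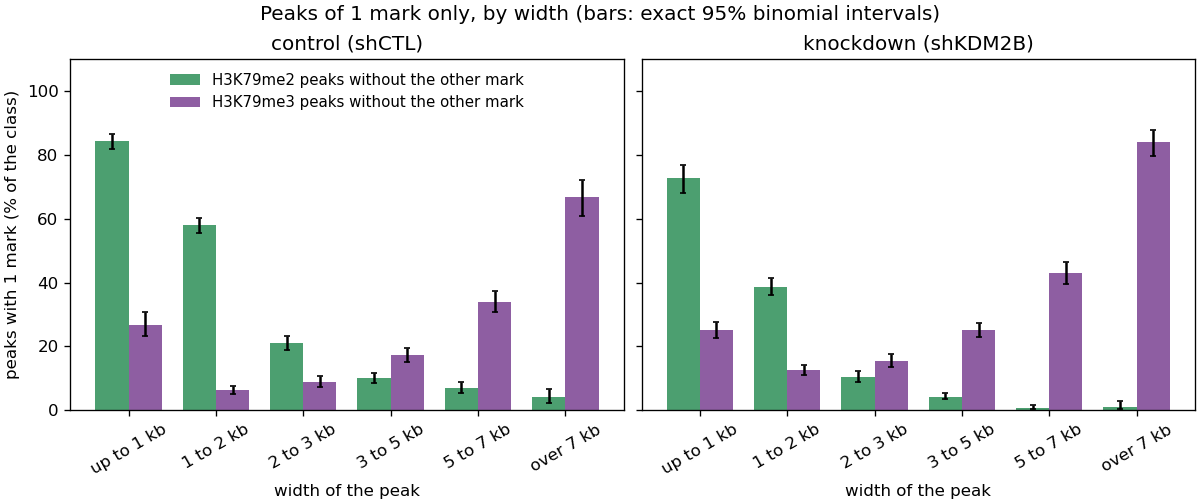
Percentage of the peaks of each mark that overlap no peak of the other, by width of the peak, in control (left) and knockdown cells (right); error bars are exact 95% binomial intervals and cover counting error only. In control cells H3K79me2 goes from 84.4% up to 1 kb down to 4.16% over 7 kb, and H3K79me3 climbs from 6.27% at 1 to 2 kb to 66.8% over 7 kb.

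Long sites with both marks often lacked a knockdown H3K79me2 peak. Of the 283 control H3K79me3 peaks over 7 kb, 189 lacked control H3K79me2. Among those that did overlap it, 97.9% met a knockdown H3K79me3 peak and 44.7% a knockdown H3K79me2 peak. At 3 to 5 kb these shares were 99.4% and 86.3%. Control H3K79me2 peaks with both marks met a knockdown H3K79me2 peak in 58.8% over 7 kb and in 92.2% at 3 to 5 kb. The score of H3K79me2 peaks with both marks had a median of 351 at 3 to 5 kb and 108 over 7 kb, while their density was 5.79 and 7.95 RPM per kb. The caller took its background over 10000 bp of the same library, and no listed peak of either mark exceeded 9166 bp. A long H3K79me3 site without H3K79me2 and a long H3K79me2 domain that was not called cannot be told apart in these lists.

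Of the 1023 sites with H3K79me3 alone, 642 (62.8%) met a knockdown H3K79me3 peak, 114 (11.1%, 95% interval 9.28 to 13.2%) a knockdown H3K79me2 peak and 368 (36.0%) neither. H3K79me3 peaks with both marks met these at 97.8% and 87.8%, and 1.08% met neither. For the H3K79me2-only sites the missing mark was found in 51.3%, but the lists searched differ, with 7042 H3K79me3 and 6176 H3K79me2 peaks in knockdown cells. The short members lay largely on input signal, with 81 of the 149 peaks up to 1 kb on an input peak (54.4%), against 2 of 189 over 7 kb (1.06%). In all, 110 of the 1023 lay on input peaks (10.8%), and 160 of the 4552 with both marks (3.51%).

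The highest-scoring H3K79me3 sites without H3K79me2, outside input peaks, lay at chromosome 3, 131218559 to 131222156, with 709 tags (11.6 RPM per kb), and chromosome 1, 156302668 to 156308349, with 1516 tags (15.7 RPM per kb). The next were at chromosome 22, 30749132 to 30753219, with 632 tags, and chromosome 7, 158494482 to 158497656, with 435 tags. Their scores of 629 to 1055 were far above the calling limit, unlike those of most members. In the knockdown lists the chromosome 3 site carried both marks at a ratio of 1.26, the chromosome 1 and 7 sites H3K79me3 alone, and the chromosome 22 site neither mark.

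Neither kind of single-mark site sat beside the other mark as a rule. Within 10000 bp, H3K79me3 was listed for 270 of the 2267 H3K79me2-only peaks (11.9%), and H3K79me2 for 114 of the 1023 H3K79me3-only peaks (11.1%). The median distances were 75.8 kb and 73.2 kb.

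The width extremes show how the called outline can differ while both marks are present. At chromosome 4, 53518890 to 53525496, H3K79me2 spanned 6588 bp with 354 tags and H3K79me3 942 bp with 34 tags. At chromosome 6, 46617487 to 46620353, the widths were 2867 and 524 bp. The reverse was seen at chromosome 3, 197517936 to 197525404, with 1516 bp of H3K79me2 and 7429 bp of H3K79me3, and at chromosome 12, 118683718 to 118684805, with 283 and 1088 bp. Every peak at the first 3 of these positions scored 93.5 or less. Split outlines were rarer: at chromosome 1, 52867335 to 52873778, 2 H3K79me2 peaks (769 tags) faced 1 H3K79me3 peak (574 tags), and at chromosome 2, 10260523 to 10267143, 1 H3K79me2 peak (760 tags) faced 2 H3K79me3 peaks (479 tags).

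By the ratio per kb the chromosomes were alike, whereas the shares of regions with 1 mark differed more. The median ratio was below 1 on each of the 23 chromosomes, from 0.632 on chromosome 1 (n = 454 regions) to 0.726 on chromosome X (n = 160). The quartiles of regions on these chromosomes overlapped, at -0.85 to -0.43 and -0.65 to -0.27 on the log2 scale, so the chromosomes differed by less than the spread of regions within them. H3K79me3 alone was least frequent on chromosome 19, in 38 of 550 regions (6.91%, 95% interval 4.94 to 9.36%), and most frequent on chromosome 7, in 74 of 435 (17.0%, 95% interval 13.6 to 20.9%). H3K79me2 alone ranged from 18.8% of regions on chromosome 13 to 33.6% on chromosome 10. The chromosomes share their libraries and are no replicates.

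**Figure D5:**
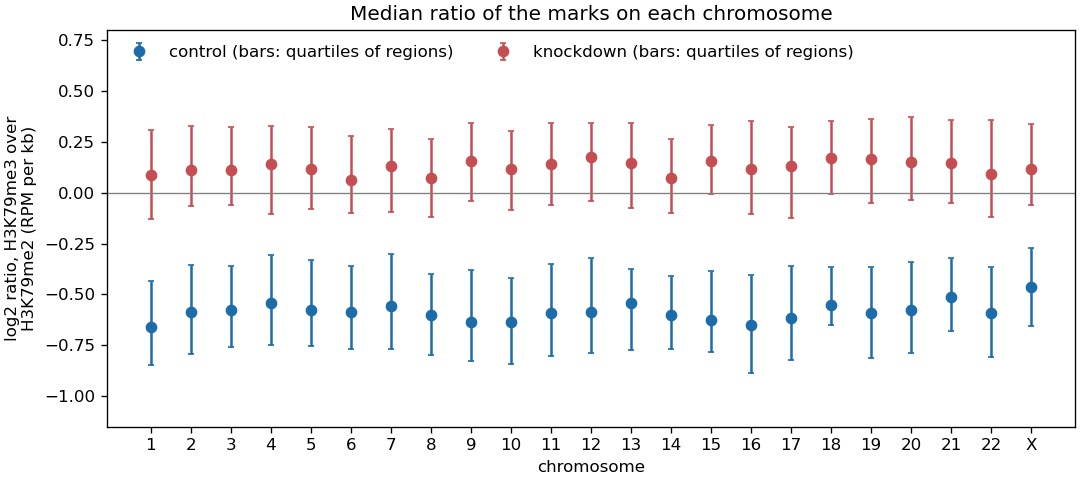
Median log2 ratio of H3K79me3 to H3K79me2 (RPM per kb of peak) on each chromosome in control and knockdown cells, with bars at the quartiles of regions. All 23 control medians lie below 0, between -0.66 on chromosome 1 and -0.46 on chromosome X, and the bars overlap.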

How the data were processed

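Libraries were made with a NEBNext kit per the labels, and the submitters' processing notes name Bowtie2 and hg19 (GRCh37), without a version for the aligner in the sources used here. Each library's peaks were called on their own with MACS 1.4.2 per the file headers, with no control file, a p cutoff of 1e-05, at most 1 tag per position and a local background over 10000 bp, so input was not subtracted. The deposited tags are a whole-number count per peak. The deposited fold enrichment is a ratio within the library. The deposited significance is used as a score, since its lowest value of 50 at that cutoff makes it 10 times the named negative log10 p.

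From these, peaks on chromosomes 1 to 22 and X (211 H3K79me2 and 170 H3K79me3 peaks lay elsewhere) were merged from 1 shared bp with Python 3.11.15, pandas 2.3.3 and numpy 2.4.6. Tags were summed per mark and region and divided by filtered tags and called width. Intervals are exact at 95% (Clopper-Pearson for shares, conditional binomial for a ratio of tags; scipy 1.17.1). The merging, ratio and shape steps were tested on simulated data. Named regions, outside input peaks, were the 4 highest and 4 lowest ratios, the 4 highest-scoring peaks of each mark alone, the 4 with most tags, the 3 largest summit distances, the 2 most extreme width ratios in each direction and 2 split regions. Members, rules and lists were chosen with earlier results of these data known. A missing peak gave no value. No gene was assigned and no genome sequence was used here.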

Additional observations from a re-analysis of the deposited data

Results flagged for a closer look

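The control and knockdown pairs of libraries lay on opposite sides of equality, and each difference was not tested because each mark has 1 library per line. The median log2 ratio of H3K79me3 to H3K79me2 per kb was -0.59 in control and 0.12 in knockdown cells, a difference of 0.72. By summed tags both medians were below 0, at -0.996 and -0.38. By the caller's fold enrichment both were above 0, at 0.11 and 0.35. Of these measures, only that per kb gave opposite signs. Scaling the control libraries to their tags in regions with both marks, which equates the summed tags by construction, gave 0.13. The knockdown libraries were not scaled in this way, so this value has no knockdown counterpart.

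Regions with H3K79me3 alone were 0.451 times as many as those with H3K79me2 alone in control cells (1023 against 2267) and 1.68 times as many in knockdown cells (1760 against 1045). The log2 of this ratio differed by 1.90 between the lines. In each line the mark with the longer peak list had more regions alone. The lists held 6808 H3K79me2 and 5575 H3K79me3 peaks in control cells, and 6176 and 7042 in knockdown cells. The part of list length in this contrast was not tested. With equal numbers of peaks from each control list the counts were 1277 and 1301, which lie close together by construction.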

How the results depend on the processing

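Of 64 values recomputed under other settings, 37 stayed within the limits set for the main value, 25 moved and 2 reversed. The reversals came from scaling each library to its tags in regions with both marks, which equates the summed tags by construction: the median log2 ratio became 0.13 and H3K79me3 was the denser mark in 66.4% of regions. The median log2 ratio and the share with H3K79me3 denser were -0.64 and 3.81% when scaled to tags outside peaks, -0.996 and 3.03% per kb of the merged region, and -0.53 and 6.11% with widths less the estimated fragment, where the log2 width ratio was -0.44. The higher-scoring 50% of each list gave 1137 H3K79me2-only and 522 H3K79me3-only peaks, a log2 ratio of -0.48, a summit distance of 157 bp, a log2 width ratio of -0.28 and H3K79me3 within H3K79me2 in 55.9%. Equal numbers of peaks gave 1301 H3K79me2-only and 1277 H3K79me3-only peaks, which lie close together by construction. A reciprocal overlap of 50% gave 2943 and 1710, with a log2 ratio of -0.58, a log2 width ratio of -0.34 and containment of H3K79me3 in 60.4%. Without peaks on input peaks H3K79me3 was denser in 3.12%, within H3K79me2 in 64.96% and around it in 2.65%. Without peaks over 7 kb the log2 ratio was -0.61. The long-arm share, a measure and alternatives chosen after seeing the data, was 76.1% turned by knockdown H3K79me3, 83.2% by control H3K79me2 and 70.1% by control H3K79me3. The control peaks also enter the measured reach, so the shares turned by them are not independent of it. Apart from the reversals and the equal lists, the cause of these moves was not tested. No paired analysis was possible because each group has 1 library. Depth limits the weak sites: a missing peak is a missing call and not a level of 0.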
